A study of Homo sapiens with 42 samples.

Results

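Metalloproteinases and their inhibitors were followed through human fibroblasts driven into senescence by an oncogene or by a DNA-damaging drug, with and without a knockdown of COPB2. The genes were all rows of the count table whose symbol is MMP, ADAM or ADAMTS with a number, or TIMP1 to TIMP4. This gave 69 of 28266 gene symbols, of which 24 are MMPs, 22 ADAMs, 19 ADAMTSs and 4 TIMPs.

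Matrix metalloproteinases (MMPs) are zinc enzymes that cut collagens and other matrix proteins outside the cell, and most are made as inactive proenzymes. ADAMs are membrane proteins, several of which release growth factors and receptors from the cell surface, and ADAMTSs are their secreted relatives, which trim procollagens and cut proteoglycans. TIMPs bind the active site of these enzymes and block them. Secreted MMPs are known parts of the mixture of factors that senescent fibroblasts release.

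The 42 libraries were poly(A) RNA-seq of IMR90, an established lung fibroblast strain, in 12 groups. IMR90 ER:RAS cells carry an inducible oncogenic RAS fused to the oestrogen receptor, and received 4OHT at 100 nM, which leads to oncogene-induced senescence (OIS), or DMSO. IMR90 cells without this transgene received bleomycin at 50 µg/ml for 24 h, or DMSO. After 7 days doxycycline at 1 µg/ml for 72 h induced a control shRNA or shRNA 1 or 2 against COPB2, which encodes a subunit of the COPI vesicle coat, and RNA was taken at day 10. Every group therefore carries an induced shRNA, and there were 3 libraries in each ER:RAS group and 4 in each IMR90 group. The study describes the repeats of its knockdown experiments as independent and gives 3 for each model, while the IMR90 groups here hold 4 libraries. The labels do not say which libraries came from separate cultures, and p-values measure the spread between these samples.

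Total counts ran from 13148194 to 23597310 per library, and the values below are CPM, which scales each library to the same total. A floor of 3 counts equals 0.228 CPM where depth was lowest and 0.127 CPM where it was highest. HRAS counts were 47753 to 75170 in cells with the transgene and 461 to 2656 in cells without it. COPB2 stood at 267 to 620 CPM in the 14 libraries with control shRNA and at 33.9 to 122 CPM in the 28 with a COPB2 shRNA. All 8 fibroblast markers checked were above the floor, with a sum of 15787 to 25998 CPM in ER:RAS DMSO and 14369 to 24423 CPM in OIS. In IMR90 the sum was 19025 to 27477 CPM in DMSO and 7905 to 20876 CPM after bleomycin. The lowest sum lay in replicate 4 of bleomycin with COPB2 shRNA 1, a library that recurs below. The sums hide wide ranges of single markers. Over all libraries DCN ran from 6.66 to 2704 CPM, LUM from 3.37 to 343, COL3A1 from 48.7 to 4361 and VIM from 3629 to 19824 CPM. The summed levels of other cell types were low: at most 2.09 CPM for 4 epithelial markers, 13.7 CPM for 3 endothelial markers and 4.04 CPM for 6 leukocyte markers. The endothelial sum was 1.11 to 4.44 CPM in ER:RAS DMSO and 8.64 to 13.7 CPM in OIS, where all 3 markers passed the floor, while in DMSO PECAM1 did not and CDH5 was at 0. The leukocyte sum was 0.350 to 1.05 CPM in IMR90 DMSO and 2.18 to 4.04 CPM after bleomycin. In ER:RAS DMSO it was 0.337 to 1.76 CPM and in OIS 1.24 to 2.90 CPM, with CD3E at 0 in both. The part of these markers in the results was not tested.

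A cluster of 9 MMP genes on chromosome 11 holds MMP1, MMP3 and MMP10. In the RefSeq annotation of GRCh38.p14 it runs from MMP7 at 102520508 to MMP13 at 102955732, in the order MMP7, MMP20, MMP27, MMP8, MMP10, MMP1, MMP3, MMP12 and MMP13. MMP1 itself lies at 102789919 to 102798160 and MMP3 at 102835801 to 102843609. The RefSeq promoter table held 39 of the 69 genes and 5 of the 9 in the cluster, but not MMP1, MMP3, MMP12 or MMP13. The 250 bases before the start site are shown for the 3 cluster genes in the table that rose in OIS, read on the minus strand of GRCh38.p14 at chr11:102530748-102530997 for MMP7, chr11:102724955-102725204 for MMP8 and chr11:102780629-102780878 for MMP10. Capitals mark TGAGTCA or its reverse complement TGACTCA, the letters of the AP-1 motif, and TATAAA or its reverse complement TTTATA.
MMP7: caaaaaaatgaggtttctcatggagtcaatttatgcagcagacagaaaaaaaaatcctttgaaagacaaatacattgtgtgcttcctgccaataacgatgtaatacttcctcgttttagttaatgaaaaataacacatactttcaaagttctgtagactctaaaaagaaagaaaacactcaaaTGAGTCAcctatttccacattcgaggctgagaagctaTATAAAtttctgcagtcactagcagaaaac
MMP8: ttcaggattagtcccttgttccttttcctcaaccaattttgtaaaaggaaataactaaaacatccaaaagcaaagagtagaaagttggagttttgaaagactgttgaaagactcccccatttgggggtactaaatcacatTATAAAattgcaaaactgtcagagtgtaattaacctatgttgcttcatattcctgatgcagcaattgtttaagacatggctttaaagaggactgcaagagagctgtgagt
MMP10: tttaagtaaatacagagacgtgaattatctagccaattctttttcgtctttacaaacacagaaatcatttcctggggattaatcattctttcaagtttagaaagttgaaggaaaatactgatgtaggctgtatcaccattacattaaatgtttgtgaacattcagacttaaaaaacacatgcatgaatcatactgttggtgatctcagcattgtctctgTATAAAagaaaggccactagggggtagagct
The AP-1 letters were in MMP7, 67 bases before its start, and in none of the other 38 promoters. They were in 4.22% of the 34943 promoters of the table. The TATAAA letters, on either strand, were found 30 bases before the start of MMP7, 31 before that of MMP10, 110 before that of MMP8 and 72 before that of MMP20. They were in 4 of the 5 cluster promoters, in 7 of the 39 promoters of all members and in 10.8% of the table. The motifs did not overlap. These matches describe letters in a window of 250 bases.

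Levels can be compared between genes only per length, here as CPM per kb of merged exon. In ER:RAS DMSO with control shRNA TIMP1 stood highest at 1105 ± 182 CPM per kb (SD, n = 3). MMP2, a gelatinase, followed at 410 ± 139 CPM per kb, then TIMP2 at 258 ± 92.2, MMP14, a membrane-type MMP, at 257 ± 84.0, and TIMP3 at 161 ± 39.1 CPM per kb. The libraries of TIMP1 did not overlap those of MMP2, while each gene from MMP2 to TIMP3 overlapped its neighbour in this order. In IMR90 DMSO the same 5 genes led in the same order, from 848 ± 253 CPM per kb for TIMP1 to 164 ± 14.2 for TIMP3 (SD, n = 4). In OIS TIMP1 reached 10391 ± 5530 CPM per kb, MMP1 4352 ± 1130, MMP3 1026 ± 304, MMP14 717 ± 271 and MMP10 190 ± 57.4 CPM per kb (SD, n = 3). MMP1 did not overlap TIMP1 or MMP3, and MMP3 overlapped MMP14. After bleomycin TIMP1 stood at 2461 ± 415 CPM per kb, and TIMP3, TIMP2, MMP1, MMP14 and MMP2 followed between 234 and 126 CPM per kb, each overlapping the next (n = 4). Together the 69 genes took 0.728% to 2.98% of the counts of a library.

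At the other end, 18 of the 69 genes failed the filter on low counts in both cell lines, and none of the 18 exceeded 15 counts in any library. These were MMP13, MMP20 and MMP27 of the cluster, with MMP21, MMP23A, MMP26, ADAM2, ADAM5, ADAM6, ADAM7, ADAM18, ADAM20, ADAM22, ADAM29, ADAM30, ADAMTS16, ADAMTS17 and ADAMTS20. ADAM6 and ADAM30 had no count at all. The edgeR quasi-likelihood test covered 48 of the 69 genes in the ER:RAS line and 47 in IMR90, with adjustment over all genes tested and a call at an adjusted p-value under 0.05.

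In OIS with control shRNA 14 of the 48 genes tested were higher than in DMSO (29.2%) and 17 were lower (35.4%). Over all genes tested 15.4% were called higher and 20.2% lower. With COPB2 shRNA 1, 13 were higher and 19 lower, beside 15.4% and 21.5% of all genes. With COPB2 shRNA 2, 15 were higher and 19 lower, beside 14.9% and 22%. After bleomycin with control shRNA 14 of 47 were higher and 14 lower (29.8% each), beside 15.4% and 15.8% of all genes. With COPB2 shRNA 1 it was again 14 and 14, beside 17.4% and 17.8%, and with COPB2 shRNA 2 it was 12 and 15, beside 21.7% and 18.3%. The median log2 fold change of the genes tested was -0.24 in OIS and 0.04 after bleomycin with control shRNA, and over all genes it was -0.08 and -0.01. Some genes passed the filter only through the group where they were high: MMP7, MMP8, MMP12, MMP25 and ADAMTS18 had under 10 counts in every ER:RAS DMSO library, and MMP3, MMP8, MMP10, MMP12, MMP28 and ADAM28 in every IMR90 DMSO library. ADAM11, ADAM21, ADAM33 and MMP23B in OIS, and MMP23B after bleomycin, did so on the senescent side. In ER:RAS DMSO, MMP3, MMP9 and MMP10 came close to this, at 2 to 14, 0 to 15 and 1 to 10 counts. Such genes could pass the filter only or largely where they were high, so the counts describe the genes tested and support nothing about all 69. Without replicate 1 of every ER:RAS group, 9 genes rather than 17 were lower in OIS with control shRNA, and without replicate 4 of every IMR90 group, 8 rather than 14 were higher after bleomycin with control shRNA. The shares of all genes called in these 2 settings were not counted.

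MMP1, interstitial collagenase, cuts the triple helix of fibrillar collagens. In ER:RAS DMSO with control shRNA its level was 48.8, 46.6 and 70.6 CPM, and in OIS it was 11406, 9109 and 15233 CPM. The OIS libraries were all far above the DMSO libraries, by 7.65 ± 0.38 on the log2 scale (SE, edgeR adjusted p = 1.61e-09), a 201-fold difference. In these bulk samples more RNA per cell and more cells with the RNA cannot be told apart. With the COPB2 shRNAs MMP1 lay between 9446 and 14401 CPM in OIS, and the log2 fold changes were 7.93 ± 0.38 and 7.67 ± 0.38. IMR90 cells started lower, at 12.2, 7.84, 13 and 12.9 CPM in DMSO. After bleomycin the values were 699, 150, 550 and 456 CPM, a rise of 5.31 ± 0.63 on the log2 scale or 39.7-fold (edgeR adjusted p = 1.85e-06). With COPB2 shRNA 1 the bleomycin libraries read 724, 230, 392 and 2324 CPM. The last of these, replicate 4, stood above the others, and without it the log2 fold change went from 6.84 to 5.79 and was still called.

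MMP3, stromelysin-1, cuts proteoglycans and other matrix proteins and activates proMMP1. Its level rose from 0.407, 0.507 and 0.240 CPM in ER:RAS DMSO with control shRNA, which is 5 to 8 counts, to 2382, 1283 and 2041 CPM in OIS. The log2 fold change in OIS was 12.17 ± 0.49. In IMR90 DMSO it had 0 to 4 counts, and after bleomycin it read 31.1, 7.62, 14.1 and 89.6 CPM. The fitted log2 fold change was 8.17 ± 1.70 (edgeR adjusted p = 0.000802), which rests on those few DMSO counts and depends on the prior count. With COPB2 shRNA 1 the 4 bleomycin libraries read 25.9, 10.7, 11.7 and 993 CPM. The DMSO libraries of this shRNA were each at or under the floor. The mean of the bleomycin libraries was at least 1854-fold above that floor, and this mean rested mostly on the library at 993 CPM. The high value was again replicate 4. Without it the fitted log2 fold change, which here depends on the prior count, went from 11.97 to 7.93 and stayed called. The bound was not computed without it. Replicate 4 was also the highest bleomycin library for MMP3 with control shRNA and with COPB2 shRNA 2, at 188 CPM.

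MMP10, or stromelysin-2, is the closest relative of MMP3. It read 0.0509, 0.127 and 0.385 CPM in ER:RAS DMSO with control shRNA and 284, 270 and 451 CPM in OIS, a log2 fold change of 10.61 ± 0.58. In bleomycin-treated IMR90 cells it stayed near the floor, at 0.718, 0.401, 0.345 and 3.84 CPM, against 0 to 3 counts in DMSO. The mean of the bleomycin libraries was at least 8.53-fold above a floor of 3 counts per library, a mean raised by replicate 4 at 3.84 CPM. The difference was called (edgeR adjusted p = 0.0177). It was no longer called without replicate 4 of the bleomycin libraries, at a log2 fold change of 2.84 and an adjusted p of 0.132. Under COPB2 shRNA 1 the same held for replicate 4, where the log2 fold change went from 4.10 to 2.24 (adjusted p = 0.0948).

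MMP12, macrophage elastase, and MMP7, matrilysin, which lacks the hemopexin domain of most MMPs, were absent or nearly so in DMSO. MMP7 had 0 counts in the 3 ER:RAS DMSO libraries with control shRNA and 46.5, 32.2 and 27.8 CPM in OIS, at least 219-fold higher. It did not pass the filter in IMR90, where bleomycin libraries held 0.0485 to 0.363 CPM. MMP12 had 0 to 3 counts in ER:RAS DMSO and 16.8, 11.7 and 21.4 CPM in OIS, at least 102-fold higher. After bleomycin MMP12 read 0.574, 0.115, 0.690 and 0.415 CPM against 0 counts in all 4 DMSO libraries, at least 2.89-fold higher (edgeR adjusted p = 0.0067). MMP8, or neutrophil collagenase, was the lowest cluster gene that passed the filter. It rose by 2.7 ± 0.86 on the log2 scale in OIS, from 0.233 ± 0.187 to 1.69 ± 1.20 CPM (SD, n = 3), and was at least 2.28-fold higher after bleomycin. With COPB2 shRNA 1 the bleomycin libraries held 3, 1, 5 and 36 counts of MMP8, the last in replicate 4, and that call was not checked without it.

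Of the 9 genes of the cluster, all 6 tested in ER:RAS were called higher in OIS with each of the 3 shRNAs, and all 5 tested in IMR90 were called higher after bleomycin with each. Over all genes 15.4%, 15.4% and 14.9% were called higher in OIS with control shRNA and COPB2 shRNA 1 and 2, and 15.4%, 17.4% and 21.7% after bleomycin. The median fitted log2 fold change of the genes tested was 9.31 in OIS and 5.31 after bleomycin with control shRNA, where some fitted values depend on the prior count. With the 2 and 3 genes whose DMSO libraries were at the floor set to their bound, the medians were 7.71 and 3.09. Of these genes, 3 of the 6 in ER:RAS and 4 of the 5 in IMR90 had under 10 counts in every DMSO library. MMP3 and MMP10 had 2 to 14 and 1 to 10 counts in the ER:RAS DMSO libraries, so they too passed the filter largely through OIS. For such genes a call of higher was largely set by the filter, so the counts are only a description of the cluster.

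**Figure D1:**
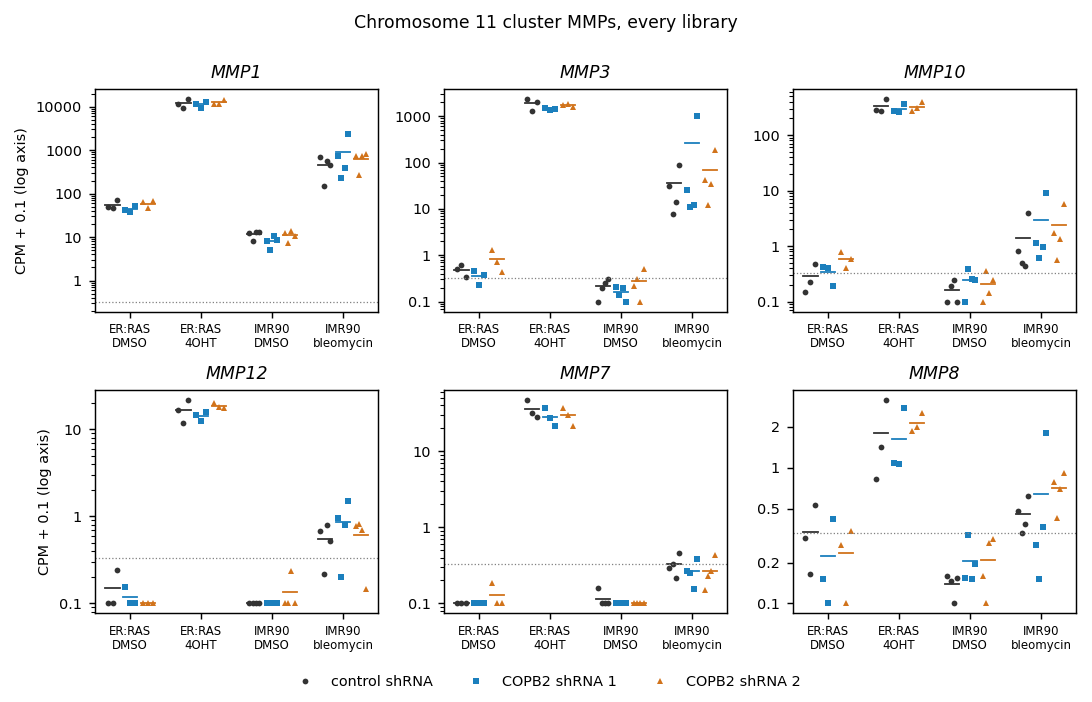
Level of 6 MMPs of the chromosome 11 cluster in each of the 42 libraries, as CPM plus 0.1 on a log axis, by cell line and treatment (x axis) and shRNA (colour and symbol). Lines are group means and the dotted line is the floor of the smallest library, taken over its total counts before TMM scaling. OIS libraries lie above DMSO libraries in every panel, and replicate 4 of bleomycin with COPB2 shRNA 1 stands out for MMP3 at 993 CPM.

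The remaining MMPs did not move together. MMP9, the gelatinase best known from leukocytes, rose only in OIS among the contrasts where it was tested, from 0 to 2 counts to 26.5, 18.6 and 34.7 CPM with control shRNA. This is at least 164-fold higher (edgeR adjusted p = 5.22e-05). In IMR90 it did not pass the filter, with 0.183 to 0.316 CPM in DMSO and 0 to 0.229 CPM after bleomycin. MMP2, the gelatinase that fibroblasts make in bulk, fell instead. It read 1804, 2638 and 1352 CPM in ER:RAS DMSO and 979, 793 and 879 CPM in OIS with control shRNA, a log2 fold change of -1.21 ± 0.23. In IMR90 it went from 2609, 2030, 1581 and 2041 CPM to 592, 654, 501 and 628 CPM, or -1.83 ± 0.17. In neither line did the senescent libraries overlap the DMSO libraries, but without replicate 1 of every ER:RAS group MMP2 was not called in OIS (adjusted p = 0.0773). MMP11, known as stromelysin-3, fell in both lines, by 2.13 ± 0.33 on the log2 scale in OIS and 2.40 ± 0.20 after bleomycin. MMP19 fell by 2.46 ± 0.32 and 0.76 ± 0.21, and the second call was lost without replicate 4 of every IMR90 group (adjusted p = 0.105). MMP23B was under the floor in every senescent library with control shRNA and was at least 3.92-fold lower in OIS and 7.18-fold lower after bleomycin. It has a near-identical copy, MMP23A, so reads could be split between them.

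Membrane-type MMPs sit on the cell surface, where MMP14 activates proMMP2. MMP14 read 1086, 1617 and 861 CPM in ER:RAS DMSO and 4753, 2454 and 2742 CPM in OIS with control shRNA, so that it rose by 1.39 ± 0.32 on the log2 scale (edgeR adjusted p = 0.00279). In IMR90 it went the other way, from 1241, 1193, 856 and 1110 CPM to 736, 715, 534 and 647 CPM, a log2 fold change of -0.77 ± 0.20 (adjusted p = 0.00605). OIS replicate 1 was the highest of its group. MMP15 was higher after bleomycin with each shRNA, by 1.00 ± 0.31 on the log2 scale with control shRNA, and was not called there without DMSO replicate 4 (0.92, adjusted p = 0.0512). In OIS it was at 0.88 ± 0.37 with control shRNA and was not called. It was called there by the DESeq2 Wald test (1.00, adjusted p = 0.0491) and by edgeR without DMSO replicate 2 (1.22, adjusted p = 0.0409). In OIS with COPB2 shRNA 1, where the replicate numbers pair the libraries, MMP15 was at 0.66 ± 0.37 without the pairing and at 0.71 with it (adjusted p = 0.0401). MMP24 was lower in OIS with COPB2 shRNA 1 and 2, at -2.17 ± 0.55 and -1.72 ± 0.53. The second of these calls was lost without DMSO replicate 1 or 2 or OIS replicate 2 or 3, at -1.27 to -1.72. MMP17 was not called in any of the 6 senescence contrasts, with log2 fold changes from -0.28 to 0.02. MMP16 was called in bleomycin with COPB2 shRNA 1 alone, at 1.66 ± 0.51. Its counts in these bleomycin libraries were 129, 70, 145 and 330, highest in replicate 4, and the call was not checked without that library. MMP25 was called in OIS with COPB2 shRNA 2 alone, at 2.03 ± 0.64. MMP28, or epilysin, was tested only in IMR90 and rose after bleomycin from 0.179, 0.138, 0.0978 and 0.263 CPM to 1.58, 1.72, 1.09 and 2.02 CPM.

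TIMP1 rose in both models. It read 1354, 1878 and 1560 CPM in ER:RAS DMSO and 24029, 12293 and 8753 CPM in OIS with control shRNA. All OIS libraries lay above all DMSO libraries, and replicate 1 was well above the others. The log2 fold change was 3.12 ± 0.36, or 8.69-fold (edgeR adjusted p = 7.65e-06), and 2.68 without replicate 1 of OIS. In IMR90 it went from 1766, 995, 1011 and 1130 CPM to 3765, 4029, 2678 and 3759 CPM, again without overlap, a log2 fold change of 1.51 ± 0.28. With the COPB2 shRNAs the log2 fold changes were 2.97 ± 0.36 and 2.73 ± 0.36 in OIS and 1.77 ± 0.28 and 2.05 ± 0.28 after bleomycin. TIMP1 lies on chromosome X at 47582436 to 47586789, inside an intron of a synapsin gene on the opposite strand, as TIMP3 and TIMP4 do in other synapsin genes. Whether counting used strand is not given, so reads of such a pair may not be told apart.

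TIMP2 takes part in the activation of proMMP2 by MMP14 besides inhibiting MMPs. It fell in OIS from 1559, 2198 and 1056 CPM to 1098, 829 and 806 CPM with control shRNA, and the highest OIS library overlapped the lowest DMSO library. The log2 fold change of -0.90 ± 0.24 was called (edgeR adjusted p = 0.00836), but not without DMSO replicate 2 or OIS replicate 2 or 3, where it was -0.59 to -0.79. After bleomycin TIMP2 read 1234, 1461, 1040 and 994 CPM against 2147, 1575, 1350 and 1606 CPM. This difference of -0.53 ± 0.19 (adjusted p = 0.0385) was not called without DMSO replicate 1, 2 or 4 or bleomycin replicate 1, 3 or 4, where it was -0.37 to -0.54. It was not called in bleomycin with COPB2 shRNA 1, at -0.43 ± 0.19.

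TIMP3 binds the matrix and inhibits ADAM17 and ADAMTS enzymes as well as MMPs. It moved in opposite directions in the models. In ER:RAS it fell from 739, 922 and 563 CPM to 288, 227 and 302 CPM with control shRNA, a log2 fold change of -1.53 ± 0.19 (edgeR adjusted p = 1.62e-05). In IMR90 it rose from 850, 747, 720 and 706 CPM to 1007, 1072, 935 and 1293 CPM, by 0.48 ± 0.14 (adjusted p = 0.0113). Neither pair of groups overlapped. Without replicate 4 of every IMR90 group the rise was 0.39 and was not called (adjusted p = 0.103), and with COPB2 shRNA 1 it was 0.33 ± 0.14 and was not called. TIMP4 was scarce, at 0.685 to 4.28 CPM over all libraries, and was not called in any senescence contrast. In OIS with COPB2 shRNA 1 it was at 0.78 ± 0.43, and with the libraries paired by number at 0.85 (adjusted p = 0.0167).

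**Figure D2:**
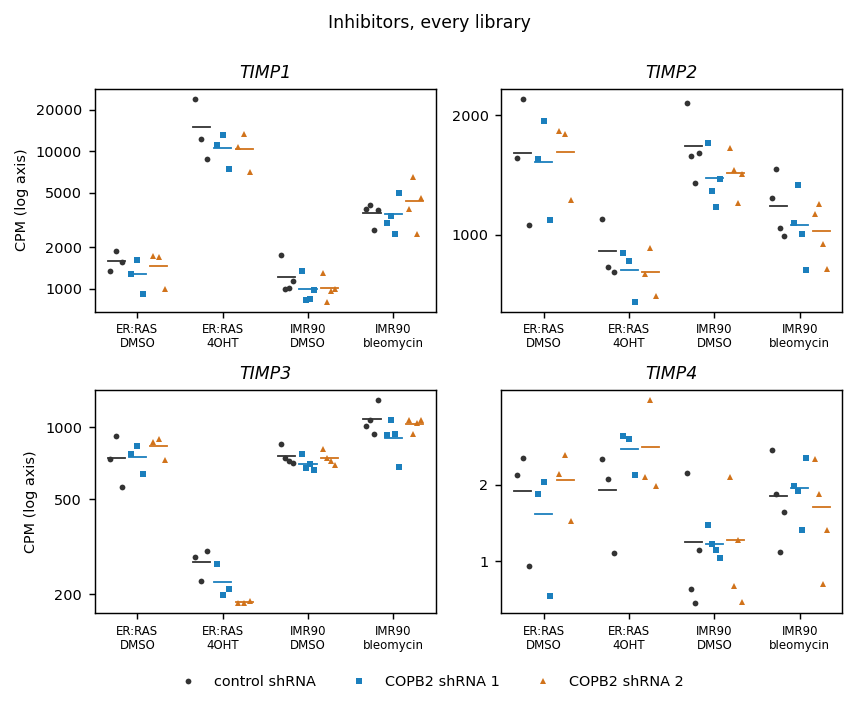
Level of TIMP1 to TIMP4 in each of the 42 libraries, as CPM on log axes of different range, by cell line and treatment (x axis) and shRNA (colour and symbol), with group means as lines. TIMP1 was higher in both kinds of senescent cells, TIMP2 was lower, and TIMP3 was lower in OIS and higher after bleomycin.

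The ratio of MMP1 to TIMP1 CPM describes how far protease and inhibitor RNA moved apart. It was 0.0354 ± 0.0102 in ER:RAS DMSO and 0.985 ± 0.667 in OIS with control shRNA (SD, n = 3), with single OIS libraries from 0.475 to 1.74. In IMR90 it was 0.00976 ± 0.00282 in DMSO and 0.137 ± 0.0759 after bleomycin (SD, n = 4). The senescent libraries did not overlap the DMSO libraries in either line. These are RNA ratios without correction for length.

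Among the ADAMs, 2 of the 11 tested in ER:RAS rose and 4 fell in OIS with control shRNA, and 4 of the 13 tested in IMR90 rose and 2 fell after bleomycin. The shares of all genes called higher and lower were 15.4% and 20.2% in OIS and 15.4% and 15.8% after bleomycin. ADAM19, or meltrin beta, which sheds neuregulin, read 52.3, 71.6 and 40.1 CPM in ER:RAS DMSO and 543, 505 and 525 CPM in OIS. The libraries of OIS were close to each other and 9.04-fold above DMSO, a log2 fold change of 3.18 ± 0.20 (edgeR adjusted p = 1.24e-08). After bleomycin ADAM19 was at 67.3, 60.5, 62.6 and 42 CPM against 74.0, 48.4, 48.0 and 50.7 CPM, a log2 fold change of 0.04 ± 0.25. ADAM12, or meltrin alpha, went from 4.38, 5.07 and 4.47 CPM to 14.6, 19.8 and 27.3 CPM in OIS, and from 10.6, 10.7, 9.49 and 10.9 CPM to 11.7, 11.3, 11.8 and 12.1 CPM after bleomycin. The log2 fold changes were 2.07 ± 0.29, which was called, and 0.14 ± 0.18, which was not. After bleomycin with COPB2 shRNA 1 ADAM12 was called, at 0.69 ± 0.18. Its counts in these bleomycin libraries were 202, 260, 200 and 422, highest in replicate 4, and the call was not checked without that library.

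ADAM11 and ADAM33 fell in every senescence contrast. ADAM33, a gene linked to asthma, went from 3.51, 5.64 and 2.98 CPM to 0.541, 0.330 and 0.507 CPM in OIS with control shRNA. After bleomycin it went from 8.91, 8.21, 5.97 and 8.26 CPM to 1.10, 1.38, 1.95 and 1.56 CPM. ADAM11, which has no active protease site, fell by 3.52 ± 0.64 and 2.79 ± 0.32 on the log2 scale. ADAM23, also without protease activity, fell in OIS by 1.26 ± 0.27 and rose after bleomycin, at 0.56 ± 0.18, but was not called after bleomycin with COPB2 shRNA 2. ADAM21 also fell in OIS and rose after bleomycin, at -2.06 ± 0.55 and 0.82 ± 0.28, but was not called after bleomycin with either COPB2 shRNA. It has a near-identical copy and stayed under 10 counts in every OIS library. ADAM15 was higher after bleomycin by 0.73 ± 0.25 on the log2 scale (adjusted p = 0.0296), a call lost without bleomycin replicate 1 or 2 or DMSO replicate 2, 3 or 4, at 0.62 to 0.73.

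The main sheddases of the cell surface, ADAM10 and ADAM17, and ADAM9 were not called in any senescence contrast. ADAM10 read 137, 45.9 and 197 CPM in ER:RAS DMSO with control shRNA and 28.9, 60.2 and 148 CPM in OIS. Such a spread within groups left a standard error of 0.86 around the log2 fold change of -0.77. ADAM17 was at -0.50 ± 0.46 in OIS and -0.03 ± 0.20 after bleomycin, and ADAM9 at -0.74 ± 0.72 and -0.10 ± 0.36. ADAM8, known from leukocytes, was not called in any of the 6 either. ADAM28 was higher after bleomycin with control shRNA, at 2.19 ± 0.74, and with COPB2 shRNA 2, where it was at least 4.68-fold higher, and ADAM32 was higher with COPB2 shRNA 1 alone, at 1.53 ± 0.58.

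Of the ADAMTS genes, 3 of 16 rose and 7 fell in OIS with control shRNA, and 1 of 15 rose and 6 fell after bleomycin, beside the same shares of all genes, 15.4% and 20.2% in OIS and 15.4% and 15.8% after bleomycin. ADAMTS8 and ADAMTS15 are neighbouring proteoglycanase genes on chromosome 11, at 130404923 to 130428609 and 130448645 to 130476645. ADAMTS8 fell from 35.5, 49.9 and 42.4 CPM to 1.44, 0.793 and 1.33 CPM in OIS, 38.2-fold or -5.25 ± 0.30 on the log2 scale. ADAMTS15 fell from 30, 41.5 and 15 CPM to 0.722, 0.528 and 1.96 CPM, at -4.78 ± 0.66. Both groups of OIS libraries lay far below DMSO. After bleomycin ADAMTS15 fell from 54.7, 61.9, 39.7 and 48.6 CPM to 5.98, 12.8, 6.09 and 5.13 CPM, at -2.81 ± 0.42. ADAMTS8 varied widely there, at 13, 47.5, 16.3 and 57.4 CPM against 77.7, 75, 70.1 and 77.8 CPM, and its difference of -1.20 ± 0.47 was not called by edgeR (adjusted p = 0.0552). The DESeq2 Wald test called it (adjusted p = 0.0370), as did edgeR without bleomycin replicate 2 (0.0440) or 4 (0.0262). It was called with COPB2 shRNA 1 and 2, at -1.98 ± 0.48 and -1.56 ± 0.47.

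ADAMTS4, an aggrecanase, and ADAMTS19 went in opposite directions in the models. ADAMTS4 rose in OIS from 1.48, 2.22 and 2.21 CPM to 9.83, 7.80 and 12 CPM and fell after bleomycin from 1.5, 2.02, 1.61 and 2.21 CPM to 0.622, 0.573, 0.345 and 0.985 CPM. ADAMTS19 fell in OIS from 3.21, 1.27 and 3.51 CPM to 0.271, 0.396 and 0.443 CPM and rose after bleomycin from 1.67, 2.06, 3.28 and 3.05 CPM to 6.89, 10.5, 12.3 and 22.7 CPM. None of these groups overlapped, and both genes were called in the same directions with all 3 shRNAs. Without replicate 1 of every ER:RAS group ADAMTS19 was not called in OIS with control shRNA (adjusted p = 0.0621). The procollagen N-proteinases, which remove the N-terminal propeptide of fibrillar procollagens, were divided. ADAMTS2 fell in both models, at -0.83 ± 0.24 and -1.59 ± 0.23, ADAMTS14 rose in OIS alone among the calls, at 1.87 ± 0.26, and ADAMTS3 was called in neither. ADAMTS7, ADAMTS10 and ADAMTS13 fell in all 6 senescence contrasts, with log2 fold changes between -0.80 and -2.33. ADAMTS7 has related pseudogenes that could share its reads. ADAMTS13 encodes the protease that cuts von Willebrand factor. ADAMTS1, ADAMTS5, ADAMTS6 and ADAMTS12 were not called in any senescence contrast, and ADAMTS9 fell in OIS with COPB2 shRNA 1 and 2, at -1.08 ± 0.38 and -1.48 ± 0.39. ADAMTS18 was at least 5.14-fold higher in OIS with control shRNA and at least 2.05-fold higher with COPB2 shRNA 2.

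Between the models with control shRNA, 31 genes were called in OIS and 28 after bleomycin, and 18 were called in the same direction in both, which is 58.1% of the former list and 64.3% of the latter. Over all genes the like shares were 43.6% and 48.2%, for 2222 genes called in the same direction in both. The genes higher in both were MMP1, MMP3, MMP8, MMP10, MMP12 and TIMP1. Those lower in both were MMP2, MMP11, MMP19, MMP23B, ADAM11, ADAM33, ADAMTS2, ADAMTS7, ADAMTS10, ADAMTS13, ADAMTS15 and TIMP2. Another 6 of the 44 members tested in both lines were called in opposite directions: MMP14, TIMP3, ADAM21, ADAM23, ADAMTS4 and ADAMTS19. Over all genes this held for 199 of the 14010 tested in both lines. Over the 6 senescence contrasts, 6 genes were higher and 11 lower in every one. The like count over all genes was not taken, so this describes the members only.

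The difference between the responses was tested in a fit of all 42 libraries. The models also differ in cell line, transgene and number of libraries, and these cannot be told apart. Of 52 members tested, 10 had a higher and 8 a lower log2 fold change in OIS than after bleomycin, beside 8.14% and 12.1% of all genes. Clear cases with high counts were TIMP3 at -1.96 ± 0.23 (edgeR adjusted p = 9.22e-08), ADAM19 at 3.19 ± 0.36 (4.35e-08) and MMP14 at 2.22 ± 0.38 (4.7e-05). ADAMTS4 was at 3.85 ± 0.40, ADAMTS19 at -5.18 ± 0.66 and ADAMTS8 at -4.0 ± 0.66. MMP1 rose by 2.41 ± 0.68 more in OIS (adjusted p = 0.0101), which was not called without replicate 1 of every ER:RAS group (adjusted p = 0.0587). TIMP1 rose by 1.70 ± 0.46 more (adjusted p = 0.00729), but by 1.19 without replicate 1 of OIS, which was not called (adjusted p = 0.0606). For MMP3 the difference of 4.08 ± 2.48 was not called (adjusted p = 0.280), but it was without replicate 4 of every IMR90 group (4.72, adjusted p = 0.0217) and by the DESeq2 Wald test (4.06, adjusted p = 0.0488).

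**Figure D3:**
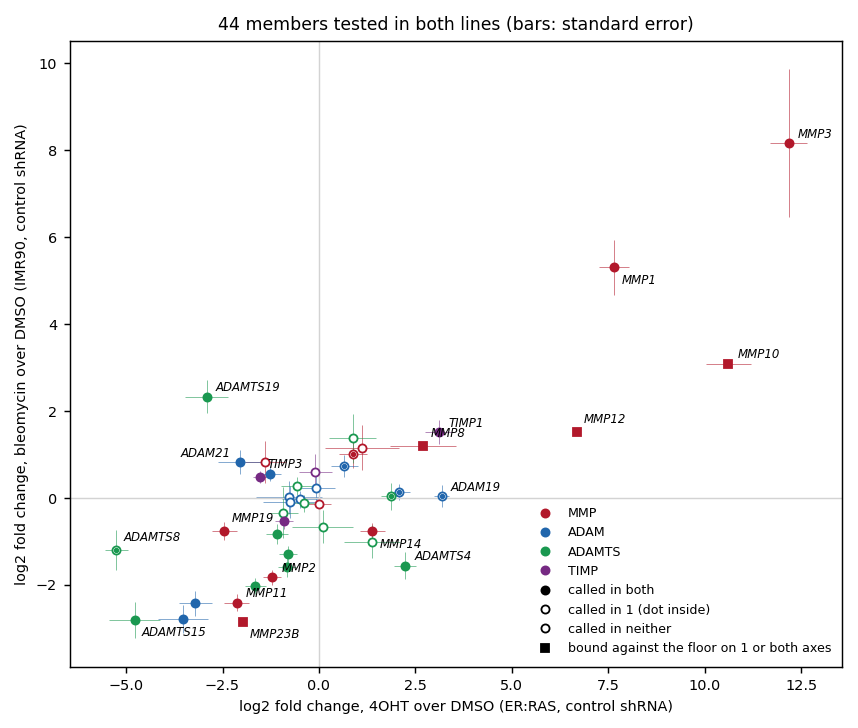
Log2 fold change of the 44 genes tested in both lines with control shRNA, in OIS (x axis) and after bleomycin (y axis), with standard errors as bars and families in colour. Filled symbols were called in both contrasts, a dot inside marks a call in 1 and squares are bounds against the floor. MMP1, MMP3 and MMP10 lie to the upper right, and MMP12 lies far to the right but lower, at its bound on the y axis. ADAMTS19 and ADAMTS4 lie in opposite quadrants.

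**Figure D4:**
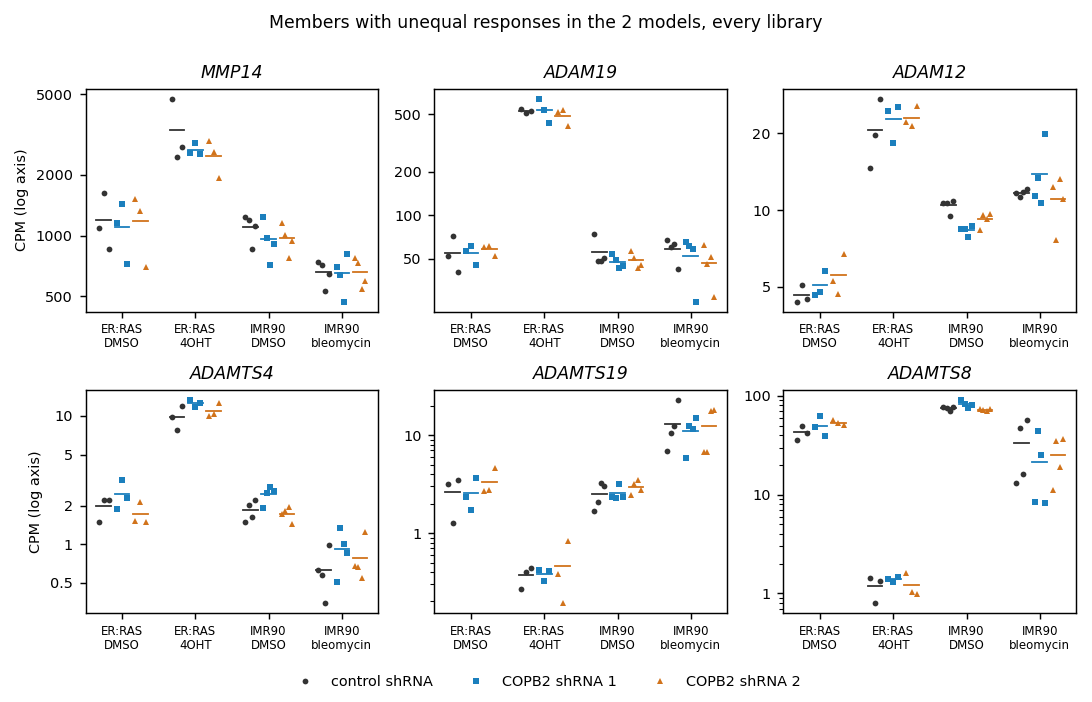
Level of 6 genes whose response differed between the models, in each of the 42 libraries, as CPM on log axes of different range, by cell line and treatment (x axis) and shRNA (colour and symbol), with group means as lines. ADAM19 lay at 416 to 638 CPM in OIS and at 25.2 to 74.0 CPM in the other groups, and ADAMTS4 and ADAMTS19 moved in opposite directions.

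COPB2 knockdown was tested within each cell state, and no member was called in any of the 8 contrasts by edgeR without pairing of libraries. With the libraries paired by number, MMP11 was called in bleomycin with COPB2 shRNA 1, as given below. Few genes of any kind were called in the unpaired fits. The share of all genes called was 0.00699% for either shRNA in ER:RAS DMSO, 0.140% and 0.224% for shRNA 1 and 2 in OIS, 0.00676% for either in IMR90 DMSO, and 0.00676% and 0.0744% in bleomycin. Members with an unadjusted p below 0.05 numbered 1 and 0 in ER:RAS DMSO, 1 and 3 in OIS, 1 and 0 in IMR90 DMSO and 3 and 3 in bleomycin. Of all genes tested, 0.811% and 0.930% had such a p in ER:RAS DMSO, 3.23% and 4.48% in OIS, 1.12% for either shRNA in IMR90 DMSO, and 1.41% and 6.74% in bleomycin. The DESeq2 Wald test called 0 members in each contrast. A missed threshold does not show equal levels.

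The members with the smallest unadjusted p were ADAMTS14 and MMP12 in ER:RAS DMSO, ADAM8 and TIMP3 in OIS, ADAM21 and MMP11 in IMR90 DMSO, and MMP11 and ADAM21 in bleomycin, for shRNA 1 and 2 in turn. In OIS TIMP3 read 288, 227 and 302 CPM with control shRNA and 184, 184 and 188 CPM with COPB2 shRNA 2. All 3 knockdown libraries were lower, by 0.57 ± 0.19 on the log2 scale, with an edgeR adjusted p of 0.616. In bleomycin MMP11 was lower with COPB2 shRNA 1 by 0.60 ± 0.20 (adjusted p = 1). With the libraries paired by replicate number, as they are in this contrast, MMP11 was called (adjusted p = 0.0474), as the only member. MMP1 differed by -0.09 ± 0.28 and 0.05 ± 0.28 between knockdown and control in OIS, and MMP3 by -0.41 ± 0.29 and -0.17 ± 0.29. TIMP1 was at -0.52 ± 0.33 and -0.55 ± 0.33 there. In bleomycin MMP3 was at 2.89 ± 1.13 with COPB2 shRNA 1, where replicate 4 was the high library, and at 0.98 ± 1.06 with shRNA 2.

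**Figure D5:**
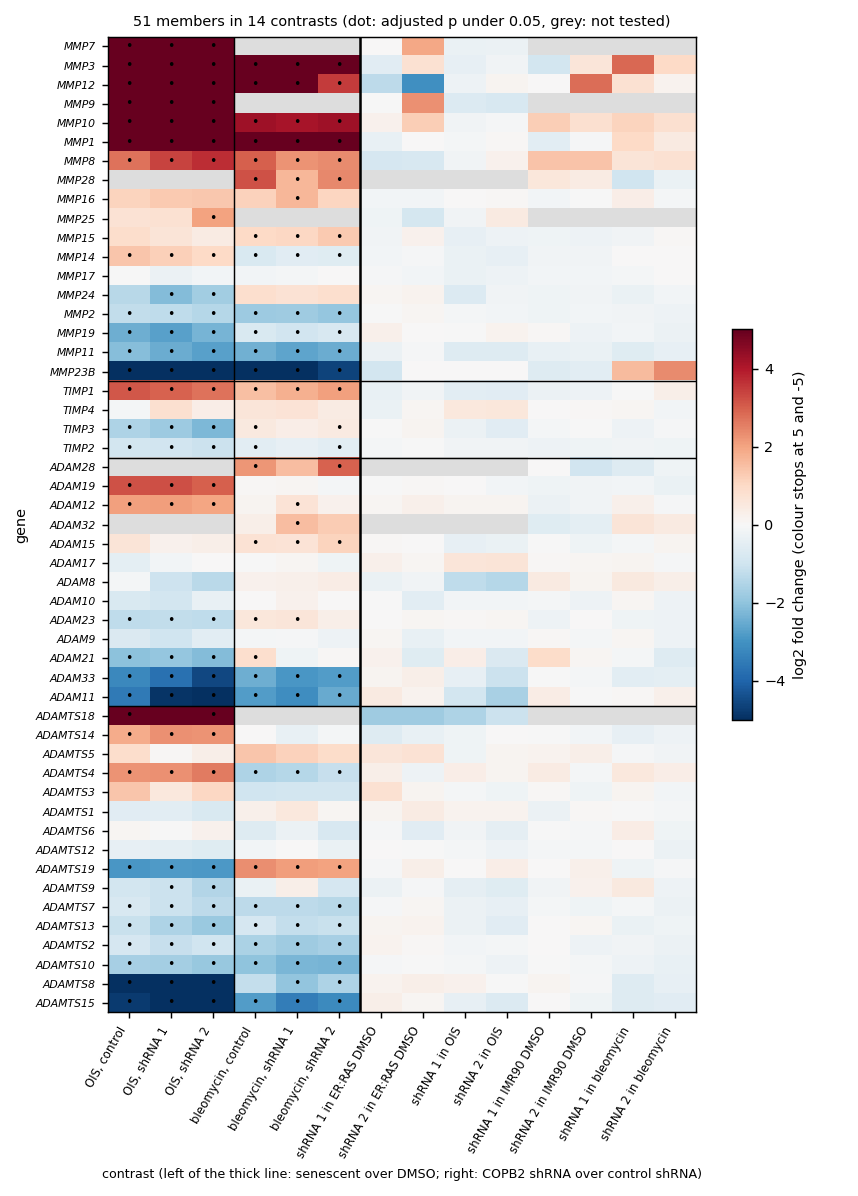
Log2 fold change of the 51 genes tested in at least 1 line (rows, by family) in 14 contrasts (columns), in colour from -5 to 5, with a dot for an adjusted p under 0.05 and grey where a gene was not tested. The 6 columns on the left, senescent over DMSO, hold 180 calls, and the 8 on the right, COPB2 shRNA over control shRNA, hold 0. Of all genes tested, 14.9% to 21.7% were called higher and 15.8% to 22% lower per column on the left. Per column on the right 0.00676% to 0.224% of all genes were called. All values come from the fits without pairing of libraries.

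Genes that switch metalloproteinases on or hold them back were examined as a list of 18, of which 15 were tested in each line. In OIS with control shRNA 8 were higher and 5 lower, and after bleomycin 7 were higher and 2 lower, beside 15.4% and 20.2% of all genes in OIS and 15.4% and 15.8% after bleomycin. PLAU, or urokinase, which makes plasmin from plasminogen, rose by 2.30 ± 0.18 and 2.26 ± 0.28 on the log2 scale, and its receptor PLAUR by 3.97 ± 0.32 and 1.84 ± 0.26. SERPINB2, an inhibitor of urokinase, rose by 9.49 ± 0.40 and 6.14 ± 0.78 on the log2 scale. It went from 2.31 to 3.61 CPM in ER:RAS DMSO to 1545 to 2610 CPM in OIS. TFPI2, a protease inhibitor of the matrix, rose by 6.38 ± 0.35 and 5.90 ± 0.86. RECK, a membrane-bound inhibitor of MMPs, fell in OIS from 58.8 to 117 CPM to 15.5 to 29.9 CPM, and was at -0.20 ± 0.21 after bleomycin. PCOLCE, which enhances procollagen C-proteinase, fell by 3.35 ± 0.37 and 3.66 ± 0.30, and A2M, a broad protease trap, was lower in both models, at -3.48 ± 0.48 and -2.34 ± 0.53.

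Of 8 other metzincins, PAPPA2, a protease of IGF-binding proteins, rose in both models, and PAPPA and TLL2 rose after bleomycin, among 3 tested in ER:RAS and 4 in IMR90. PAPPA was at -0.56 ± 0.39 in OIS and 2.04 ± 0.26 after bleomycin. The ADAMTS-like proteins lack the protease domain, and 7 of the 8 listed were in the table. ADAMTSL4 fell in OIS from 50.8 to 7.03 CPM on average, and ADAMTSL1 fell in OIS and rose after bleomycin, at -2.92 ± 0.42 and 1.17 ± 0.39. THSD4 fell after bleomycin. Among 8 partners of ADAM10 and ADAM17, 7 were tested. RHBDF1 and RHBDF2, the iRhoms that carry ADAM17 to the cell surface, rose in OIS by 1.59 ± 0.21 and 2.06 ± 0.25, as did the ADAM10 partner TSPAN14 by 0.97 ± 0.22, while TSPAN5 fell in both models and TSPAN10 in OIS. After bleomycin RHBDF1 and RHBDF2 were at 0.37 ± 0.16 and 0.70 ± 0.28 and were not called. In the knockdown contrasts no gene of these 4 lists was called by edgeR without pairing of libraries.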

How the data were processed

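The authors deposited raw counts of reads per gene symbol for 42 libraries. The submitters' processing notes name hg38, STAR 2.7.8a, DRAGEN and DESeq2 1.32.0, while the published methods name hg19 and Tophat for directional poly(A) libraries, so the build of the counts is not settled here, and how reads over 2 genes were counted is not given in the sources used here. Coordinates and promoters come from RefSeq GRCh38.p14, which held 26986 of the 28266 symbols, and lengths are merged exons of GENCODE on GRCh37, found for all 69 members.

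Libraries were scaled by TMM, genes kept by filterByExpr, and tested per cell line in edgeR 4.0.16 (R 4.3.3) by robust quasi-likelihood F-tests, 6 groups in a fit, with Benjamini-Hochberg adjustment over all genes and a threshold of 0.05. Standard errors are the absolute log2 fold change over the square root of F. CPM are counts over the TMM-scaled library size. A fold against a group at or under 3 counts per library is a bound, set by the mean of the other group and that floor. Floors cover counting error only. The totals of 13148194 to 23597310 counts set the precision of low genes. The fit was tested on simulated data with known changes.

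Groups came from the labels. MMP1, MMP3, the TIMPs, the 6 highest and 6 lowest called members of each model whose higher group averaged 100 counts or more, the member with the smallest p per knockdown contrast and the 4 highest and 4 lowest called differences between models were named by rule, and others with their levels. The members and lists were chosen with earlier results of these data known. Replicate numbers paired libraries, judged by correlated deviations over 0.1 in every pair, in OIS with COPB2 shRNA 1 (r = 0.405 to 0.755) and 2 (0.459 to 0.766), and in the 4 knockdown contrasts of IMR90 (0.106 to 0.787), and in no other contrast. Alternatives were other size factors, other filters, DESeq2 1.42.0, only the libraries compared, a replicate block and leaving out libraries. Sequence comparisons of the proteins were not analysed here.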

Additional observations from a re-analysis of the deposited data

Results flagged for a closer look

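Of 135 sets of 4 libraries, each for 1 gene in 1 IMR90 group, 12 had a library set apart from the others by Dixon's criterion. For independent normal values the criterion marks about 1 in 20 sets. Sets here share libraries, so that rate does not tell how many to expect. Bleomycin replicate 4 with COPB2 shRNA 1 was high for MMP3, at 993 CPM against 10.7 to 25.9 CPM, and for MMP10, at 8.88 against 0.512 to 1.01 CPM, and low for ADAM19, at 25.2 against 58.0 to 64.7 CPM. This library also had the lowest fibroblast marker sum, 7905 CPM, and the part of that in its values was not tested. Replicate 4 of bleomycin with control shRNA was high for MMP10, at 3.84 against 0.345 to 0.718 CPM. Bleomycin replicate 2 was high for ADAMTS15 with control shRNA, at 12.8 against 5.13 to 6.09 CPM, and for MMP19 with COPB2 shRNA 2, at 20.8 against 10.4 to 11.6 CPM.

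In IMR90 DMSO with control shRNA, replicate 2 was low for MMP1, at 7.84 against 12.2 to 13 CPM, and replicate 1 was high for ADAM19, at 74.0 against 48.0 to 50.7 CPM. With COPB2 shRNA 1 in DMSO, replicate 1 was high for MMP15, at 8.98 against 4.60 to 4.86 CPM, and for ADAM15, at 97.9 against 60.1 to 65.6 CPM, and replicate 3 was high for ADAMTS19, at 3.16 against 2.30 to 2.35 CPM. With COPB2 shRNA 2 in DMSO, replicate 1 was high for MMP24, at 4.51 against 2.28 to 2.66 CPM.

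The response to 4OHT differed from that to bleomycin, by the edgeR test of the difference, for 8 genes named by rule. The log2 difference was 3.85 for ADAMTS4, 3.19 for ADAM19, -5.18 for ADAMTS19, -4.0 for ADAMTS8, -1.96 for TIMP3 and -2.15 for MMP24 (adjusted p = 0.0472). MMP24 was not called in 10 of 14 fits that left out a library. The fitted differences were 9.78 for MMP9 (adjusted p = 8.46e-06) and 8.78 for MMP7 (adjusted p = 0.0169). Libraries of IMR90 were at or near the floor for both genes, so these 2 values depend on the prior count and are no bound. Without replicate 1 of IMR90 DMSO, which held the only MMP7 read of its group, MMP7 was at 7.25 (adjusted p = 1).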

How the results depend on the processing

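No log2 fold change of a named gene that was called in the main fit or the alternative reversed its direction. Changes of sign between values not called in either were not tallied. Of the counts of members called, 6 moved by over 1.5 times. Without replicate 1 of every ER:RAS group, 9 members in place of 17 were lower in OIS with control shRNA. Without replicate 4 of every IMR90 group, 8 in place of 14 were higher after bleomycin with control shRNA, and with only the libraries compared 9 were. After bleomycin with COPB2 shRNA 2, 19 in place of 12 were higher with no low count filter and 7 with only the libraries compared. These alternatives test fewer libraries or more genes, and the share of all genes called in each was not counted. Both settings that leave out a replicate number were chosen after seeing the data.

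With a replicate block, 17 members were higher and 20 lower in OIS with control shRNA, and 14 and 16 after bleomycin, where the numbers do not pair the libraries. The shares of all genes called with the block were not counted. In the paired contrasts the block called MMP11 in bleomycin with COPB2 shRNA 1, 1 member in place of 0, and it added MMP15 and TIMP4 in OIS with COPB2 shRNA 1. It changed no other call of a named gene in those contrasts.

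Leaving out each library in turn gave 12 to 14 members higher and 13 to 18 lower in OIS with control shRNA, 10 to 13 and 13 to 15 after bleomycin, and 9 to 11 and 7 to 9 for the difference between them. Shares of all genes were not counted for these fits either. Of the values of named genes under the alternatives, 2669 kept their side of the threshold, 75 lost a call and 21 gained 1. Without replicate 1 of every ER:RAS group, TIMP2, MMP2 and ADAMTS19 were not called in OIS with control shRNA (adjusted p = 0.173, 0.0773 and 0.0621). Without replicate 4 of every IMR90 group, MMP10, MMP19, TIMP2, TIMP3 and ADAM15 were not called after bleomycin. With DESeq2 size factors TIMP2 was not called after bleomycin (adjusted p = 0.0643). The cause was not tested. Depth limits genes near the floor, such as MMP7, MMP8, MMP9 and MMP12 in IMR90.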
